A study of Gallus gallus with 13 samples.

Results

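Mid-S local timing peaks are stretches of chromosome 1 whose leading S-phase fraction in wild-type (Wt) DT40 cells was a middle one and earlier than the leading fraction on either side. They were chosen from the 4 Wt S-phase fractions, S1 (earliest) to S4 (latest). For every fraction the 1st percentile was subtracted, negative values were clipped at 0, and the result was divided by its mean and averaged over windows of 20 kb. The fraction with the highest value was called the leader of the window. A peak is a run of consecutive windows led by S2 or S3 whose neighbouring runs on both sides were led by a later fraction. On this rule 56 peaks were found, made of 374 of the 9787 windows with a leader (3.82%) and covering 7480 kb. The other runs led by S2 or S3 were timing transitions (310 runs, 2162 windows), which have an earlier leader on 1 side, and valleys (79 runs, 931 windows), which have an earlier leader on both sides.

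Eukaryotic chromosomes replicate in a set order during S phase, in domains that fire their origins early or late and that are joined by transition regions crossed by forks from the earlier side. A local maximum of a timing profile marks a place where replication begins before its surroundings, and is the usual signature of an initiation zone, while a local minimum is where forks from both sides meet. Early domains are as a rule rich in active genes and open chromatin, and late domains are gene-poor and compact.

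The study compared a homozygous clonal DT40 line with Wt DT40 cells, both chicken B-lineage cells from a bursal lymphoma. The labels give the genotype of the clone as 2x (betaA-globin+ beta-actin), and do not say what 2x stands for. Per the design text, cis-regulatory elements were inserted on both alleles within chr1:71981290-73532377 (galGal5), which it calls mid-late replicating. In Wt this region held an S3-led run around the labelled insertion positions and, further downstream, an S1-led run of 380 kb. Both lines were pulsed with the thymidine analogue BrdU for 1 h and sorted by DNA content, and the immunoprecipitated nascent strands were sequenced. A locus thus gives signal in the fractions sorted while it was being copied. There was 1 library per fraction and line, 8 in all, from a single modified clone, so no value below has a replicate error and no difference has a p-value.

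The profiles hold a score every 1 kb and no read counts, so the depth behind them is unknown. They are smooth. Within a profile, values 10 kb apart correlated with r of 0.988 to 0.993 and values 50 kb apart with r of 0.846 to 0.888, so neighbouring windows are not independent observations. Because the Wt profiles chose the peaks, Wt values are given as a description. The clone libraries played no part in the choice, and they are the separate view of the same places.

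S2 led 33 of the 56 peaks and 214 of their windows, and S3 led 23 peaks and 160 windows. Of the S2-led peaks, 29 lay between S3-led runs, 1 had S3 before it and S4 after it, 1 the reverse, and 2 lay between S4-led runs. All 23 S3-led peaks lay between S4-led runs, as S4 is the only later fraction. Peaks were 20 to 540 kb long with a median of 80 kb, S2-led peaks having a median of 80 kb and S3-led peaks of 60 kb. In 8 peaks the run was a single window.

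The peaks were spread over the whole chromosome. Divided into 10 equal parts, it held 4 to 9 peaks in each, with the 9 at chr1:117720001-137340000. The nearest other peak lay 20 to 8020 kb away with a median of 1020 kb, and 10 of the 56 peaks had another within 100 kb. The nearest S1-led run was 20 to 1400 kb away with a median of 380 kb.

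In the S2-led peaks the median shares of the summed signal were 17.1%, 35.1%, 32.7% and 11.4% for S1, S2, S3 and S4 in the clone. In Wt they were 19.9%, 37.5%, 29.6% and 10.9%. S2 thus had the highest median in both lines, though it did not hold the largest share in every one of these peaks in the clone. The margin of its median over that of S3 was narrower in the clone. The peaks were chosen for a high S2 in Wt, so nothing is read from this. In the S3-led peaks the medians were 9.14%, 18.9%, 37.5% and 34.1% in the clone, and 9.17%, 17.3%, 38.8% and 33.3% in Wt. Over all windows the medians were 14.1%, 18.1%, 21.8% and 28.9% in the clone and 16.3%, 17.7%, 21.1% and 27.8% in Wt, so the peaks had more S2 or S3 than a usual window, which is what the rule selected in Wt.

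**Figure D1:**
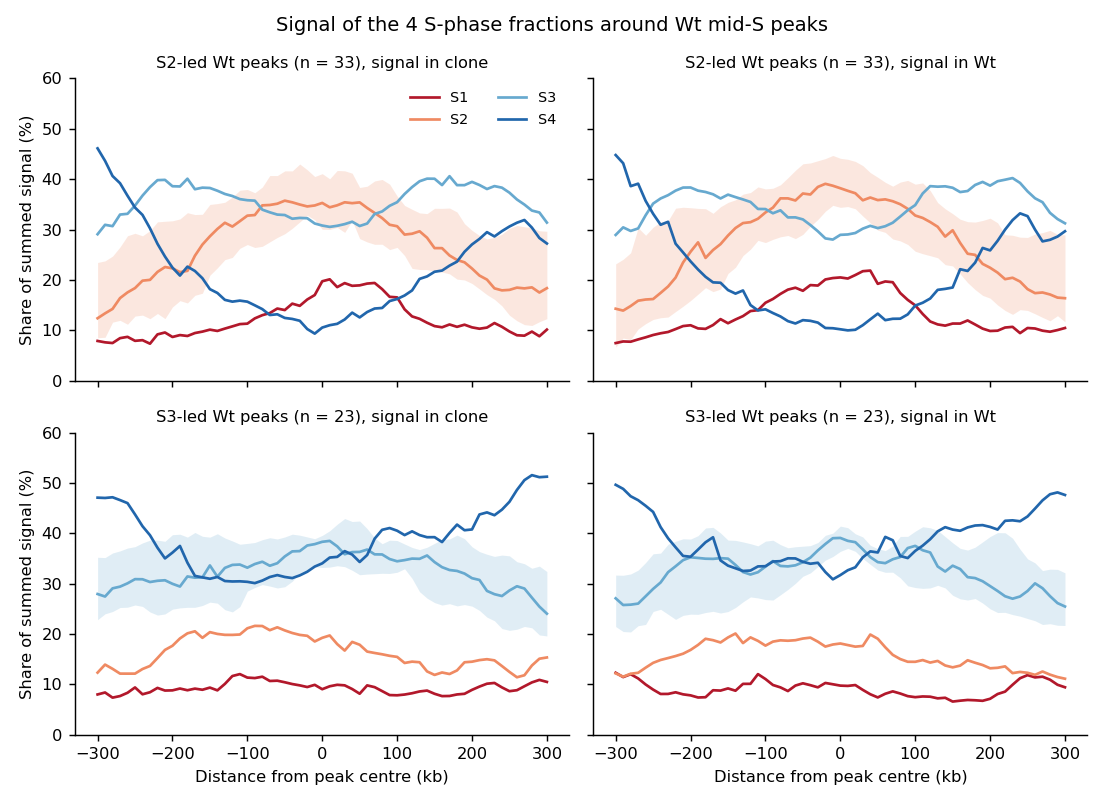
Median share of the summed signal (vertical axis, percent) held by each fraction against distance from the peak centre (horizontal axis, kb), for the 33 S2-led peaks (top) and the 23 S3-led peaks (bottom), in the clone (left) and Wt (right), with the band showing the middle 50% of peaks for the leading fraction. At the centre of the S2-led peaks the S2 share is 35.3% in the clone and 38.2% in Wt, and 300 kb upstream S4 is the largest share, at 46.1% in the clone and 44.8% in Wt, while 300 kb downstream S3 is, at 31.4% in the clone and 31.2% in Wt.

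The lead of the first fraction over the next was often small. Over the 374 peak windows the leader exceeded the next fraction by a median of 23.6%, against 31.4% in S2- or S3-led transitions, 35.5% in valleys and 70.8% over all windows. The lead was under 5% in 47 of the 374 peak windows (12.6%) and in 4.57% of all windows. The closest windows inside a peak were chr1:172600001-172620000, where S3 exceeded S4 by 0.0683%, chr1:121340001-121360000, where S2 exceeded S3 by 0.164%, and chr1:172280001-172300000, where S3 exceeded S4 by 0.344%. The closest windows outside were chr1:95440001-95460000, where S3 fell short of S4 by 0.00866%, chr1:133580001-133600000, where S2 fell short of S3 by 0.0370%, and chr1:48160001-48180000, where S2 fell short of S3 by 0.114%.

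The same fraction led in the clone in 266 of the 374 peak windows (71.1%), against 88.7% of all windows of the chromosome. A later fraction led in the clone in 98 peak windows (26.2%, against 7.07% of all windows) and an earlier one in 10 (2.67%, against 4.27%). The rule required later leaders on both sides, so a peak with shifted borders is replaced by a later leader, and the direction of these changes is set in part by how the windows were chosen. The same holds in reverse. Of the 455 windows in peaks called in the clone, Wt had the same leader in 339 (74.5%), a later one in 101 (22.2%, against 4.27% of all windows) and an earlier one in 15 (3.30%, against 7.07%).

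S2-led peak windows passed to S3 more than to any other fraction. Of the 214, the clone leader was S2 in 147 (68.7%), S3 in 63, S4 in 3 and S1 in 1, against 81.1% of all S2-led windows of Wt led by S2 again, 13.5% led later and 5.38% led earlier. Of the 160 S3-led peak windows, the clone leader was S3 in 119 (74.4%), S4 in 32, S2 in 5 and S1 in 4, against 85.4% of all S3-led windows led by S3 again, 7.57% led later and 6.99% led earlier. Windows in Wt transitions kept their leader in 83.2% of cases and those in valleys in 88.7%.

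Small leads were lost more often. Among peak windows with a Wt lead of 50% or more, 74 of 81 (91.4%) had the same leader in the clone, against 98.1% of 995 other S2- or S3-led windows. With a lead of 20 to 50% it was 109 of 126 (86.5%), against 88.8% of 1088. With a lead of 5 to 10% it was 23 of 54 (42.6%), against 65.9% of 267, and under 5% it was 22 of 47 (46.8%), against 57.9% of 240. In each of these ranges, and from 10 to 20% (57.6% of 66 against 72.5% of 513), the share was lower in peak windows than in the other windows of like lead.

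**Figure D2:**
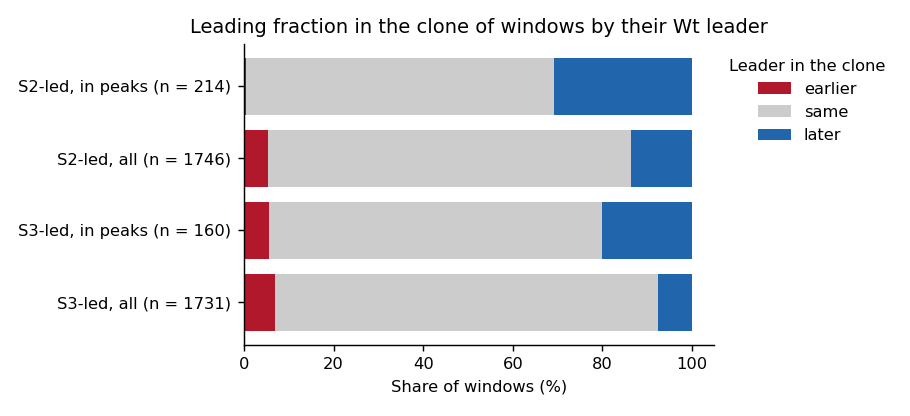
Share of windows (horizontal axis, percent) whose leading fraction in the clone was earlier, the same or later than in Wt, for S2-led and S3-led windows in peaks and for all windows with that Wt leader. The leader was the same in 68.7% of S2-led peak windows and 81.1% of all S2-led windows, and in 74.4% of S3-led peak windows and 85.4% of all S3-led windows.

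When the same rule was applied to the clone it gave 64 peaks (455 windows, 4.65% of windows), 40 led by S2 and 24 by S3. Of the 56 Wt peaks, 24 (42.9%) shared at least 1 window with a clone peak, and of the 64 clone peaks 27 (42.2%) shared at least 1 with a Wt peak. By windows, 197 of the 374 windows in Wt peaks (52.7%) lay in a clone peak, against 4.65% of all windows. In 23 of the 24 a clone peak with the same leader overlapped, and the other was the single window chr1:133560001-133580000, led by S2 in Wt and inside an S3-led peak in the clone. It is named for this, after its values were seen. The share depended on how the fractions were scaled, and with the deposited values compared directly 37 of 60 Wt peaks (61.7%) were overlapped.

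The peaks found in both lines were mostly the long ones. Of the 24 peaks of 100 kb or more, 20 (83.3%) overlapped a clone peak and 243 of their 299 windows (81.3%) kept the leader. Of the 32 peaks of up to 80 kb, 4 (12.5%) overlapped one and 23 of 75 windows (30.7%) kept the leader. Over all windows 88.7% kept the leader and 4.65% lay in a clone peak. The split at this length was chosen after the values were seen, and a longer interval meets a clone peak more easily. Other runs of like length were not compared, so whether the split is particular to peaks was not tested. With the deposited values compared directly, 25 of 25 long peaks and 12 of 35 short ones were overlapped. The overlapped peaks had a median length of 220 kb, a median lead of 26.7% and a median distance of 520 kb from the nearest S1-led run, against 50 kb, 8.60% and 220 kb for the others. In the clone, the centres of the 32 peaks with no overlap lay in timing transitions (17), S4-led runs (12), valleys (2) and an S1-led run (1).

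A timing index was used to check whether the peaks were local maxima, as their name says. The index weights the scaled signal of S1, S2, S3 and S4 by 4, 3, 2 and 1 and divides by the sum, so that it runs from 1 to 4 and a higher value is earlier. Each peak was compared with the 40 kb on either side. In the clone the index of 27 of the 56 peaks (48.2%) was above both flanks, against 22.8% of 777 Wt runs of all kinds. It was above both flanks in 5 of 310 transitions, 3 of 78 valleys, 11 of 155 S4-led runs and 131 of 178 S1-led runs. In Wt, whose values chose the peaks, it was above both flanks in 35 of 56, so 21 of the 56 were not index maxima on this measure even in the line that defined them.

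Wt values chose the peaks, so only the clone is a separate view here. On this index the name held for most of the long peaks, while the authors' weighted average, given below, was less clear. Among those of 100 kb or more the index was above both flanks in the clone in 21 of 24 and in Wt in 24 of 24, with a median difference from the mean of the flanks of 0.275 in the clone and 0.290 in Wt. Among those of up to 80 kb it was above both in the clone in 6 of 32 and in Wt in 11 of 32, with medians of 0.00568 in the clone and 0.0509 in Wt. On this measure most short runs were thus a change of leading fraction without a separate maximum. The profiles are smooth over such lengths, so the measure cannot tell an absent maximum from one that was not resolved. Within 40 kb of each run, the highest point of the index in the clone lay a median of 17 kb from that in Wt over the 56 peaks. Over the long ones it was 31 kb, and 11 of 24 were within 20 kb. In a number of short runs, such as chr1:22380001-22440000, that point lay at the edge of the searched interval in both lines. The limit of the search then gives a distance of 0, so the median over the 56 peaks does not show how closely maxima matched.

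**Figure D3:**
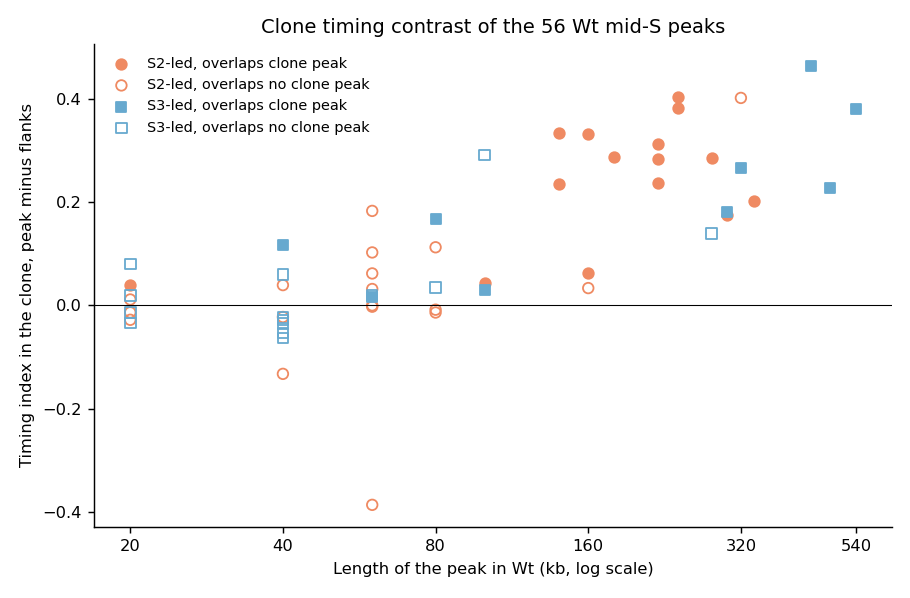
Timing index of each of the 56 Wt peaks in the clone minus the mean of its flanks (vertical axis) against the length of the peak (horizontal axis, kb, log scale), with circles for S2-led and squares for S3-led peaks and filled symbols for peaks that overlap a clone peak. All 24 peaks of 100 kb or more lie above 0, between 0.0300 and 0.464, while the 32 shorter ones lie on both sides of it.

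Among the S2-led peaks the longest was chr1:71500001-71840000, 340 kb, which lies between an S3-led run of 100 kb and one of 940 kb. Its deposited scores were -0.134, 0.634, 0.474 and -0.50 SD units for S1, S2, S3 and S4 in the clone, and -0.134, 0.793, 0.436 and -0.451 in Wt. S2 was the highest and S4 the lowest in both lines. The index was 2.59 in the clone, with flanks of 2.28 and 2.50, and 2.6 in Wt, with flanks of 2.21 and 2.52. In the clone 11 of its 17 windows were led by S2 and 6 by S3, and the clone had peaks at chr1:71580001-71780000 and chr1:71820001-71900000. By the authors' weighted average the 340 kb run stood -0.342 SD units from the mean of its flanks in the clone and 0.223 above it in Wt.

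The next in length, chr1:145900001-146220000 (320 kb), had high signal in both lines. Its scores were 1.42, 3.42, 1.41 and -0.787 SD units for S1, S2, S3 and S4 in the clone and 0.898, 3.10, 1.08 and -0.983 in Wt, with the summed signal at the 98.4th percentile of windows in the clone and the 97.1st in Wt. The index was 2.97 in the clone, with flanks of 2.63 and 2.50, and 2.95 in Wt, with flanks of 2.70 and 2.51. S2 led 14 of its 16 windows in the clone, yet no clone peak overlapped it, because 1 window was led by S1 and the rule admits no earlier neighbour. The index was thus above both flanks in both lines, although the rule counts the peak in Wt alone. The authors' weighted average was 0.139 SD units above the mean of the flanks in the clone and -0.334 from it in Wt.

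The other long S2-led peaks kept S2 in most windows. In chr1:119660001-119960000 (300 kb) S2 led all 15 windows in the clone, with shares of 17.8%, 44.4%, 29.9% and 7.92% for S1, S2, S3 and S4 in the clone and 23.3%, 40.7%, 29.4% and 6.54% in Wt. In chr1:6100001-6380000 (280 kb) S2 led 13 of 14, with shares of 17.1%, 42.8%, 33.0% and 7.03% in the clone and 18.2%, 43.2%, 30.6% and 7.98% in Wt. In both, S2 was at the top and S4 at the bottom in either line. In chr1:60860001-61100000 (240 kb) S2 led 8 of 12 windows and S3 the other 4, and the S2 share was 36.1% in the clone and 42.3% in Wt, while the index stood 0.383 above the flanks in the clone and 0.452 in Wt. The S2-led peak with the largest difference from its flanks in the clone was chr1:190360001-190600000 (240 kb), with 0.405 in the clone and 0.322 in Wt, and S2 led 11 of its 12 windows there.

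The S3-led peaks lay between S4-led runs of 20 to 3180 kb, and the longest 3 of them were longer than any S2-led one. The peak chr1:43100001-43540000 (440 kb) followed an S4-led run of 3180 kb and preceded one of 320 kb. Its scores were -0.374, 0.317, 1.54 and 0.317 SD units for S1, S2, S3 and S4 in the clone and -0.377, 0.427, 1.71 and 0.379 in Wt. S3 stood far above the other fractions in both lines, and S3 led 21 of the 22 windows in the clone. The index was 2.22 in the clone, with flanks of 1.84 and 1.68, the largest difference among the 56 peaks in the clone at 0.464, and 2.24 in Wt, with flanks of 1.86 and 1.79.

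The longest peak, chr1:1740001-2280000 (540 kb), lay near the start of the chromosome. Its shares were 5.80%, 25.2%, 42.0% and 27.1% for S1, S2, S3 and S4 in the clone and 6.33%, 21.0%, 49.3% and 23.3% in Wt. S3 held the top share in either line. S3 led 20 of its 27 windows in the clone, S2 led 4 and S4 led 3, and 12 of the 27 lay in a clone peak. In 5 of the 27 the authors' weighted-average profile has too few values to use. The peak chr1:121700001-122180000 (480 kb) was led by S3 in 22 of 24 windows in the clone, with an S3 share of 39.1% in the clone and 38.3% in Wt, while S2 and S4 led 1 window each and 6 of the 24 lay in a clone peak.

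The next S3-led peaks in length kept S3 to different extents. In chr1:143740001-144060000 (320 kb) S3 led 10 of 16 windows in the clone and S4 the other 6, with an S3 share of 34.9% and an S4 share of 32.3% in the clone, against 38.8% and 31.8% in Wt. In chr1:172280001-172580000 (300 kb) S3 led all 15 windows, with an S3 share of 42.0% and an S4 share of 26.2% in the clone, against 39.4% and 31.7% in Wt. The index of this peak was 2.16 in the clone and 2.06 in Wt, and its downstream flank was 2.20 in the clone, so that it was not above both flanks in the clone. It runs into the next peak, chr1:172600001-172660000, after a single S4-led window in Wt.

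Of the 24 long peaks, 4 met no clone peak, and they differed in how. The peak chr1:145900001-146220000 was described above. In chr1:102420001-102700000 all 14 windows were led by S3 in the clone as in Wt, but a neighbouring run had an earlier leader, and the index was 2.24 in the clone and 2.23 in Wt. In chr1:156060001-156220000 all 8 windows were led by S3 in the clone, with an S2 share of 31.5% and an S3 share of 37.3% there, against 36.1% and 33.1% in Wt, and with an index of 2.51 in the clone and 2.52 in Wt. In chr1:95000001-95100000 S1 led 4 of 5 windows in the clone, with an S1 share of 32.7% in the clone and 26.9% in Wt. The last 3 were named because they were the exceptions, after their values were seen.

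The peaks with the smallest difference from their flanks in the clone were all short. In chr1:115520001-115580000 (60 kb) the shares were 0.960%, 21.3%, 68.9% and 8.92% for S1, S2, S3 and S4 in the clone and 3.06%, 77.0%, 15.5% and 4.39% in Wt. S3 was the top fraction in the clone and S2 in Wt. The index differed from the flanks by -0.387 in the clone and 0.477 in Wt. The summed signal here was at the 8.16th percentile in the clone and the 2.45th in Wt, the lowest of all peaks in Wt, and 2 of its 3 windows lie where the authors' weighted-average profile has no value. How far the low signal accounts for the difference was not tested.

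In chr1:159060001-159100000 (40 kb), an S2-led run between S4-led runs, the shares were 21.8%, 21.5%, 20.1% and 36.5% for S1, S2, S3 and S4 in the clone and 16.6%, 36.8%, 14.5% and 32.2% in Wt. S4 led both windows in the clone, and the summed signal was at the 13.3rd percentile in the clone and the 13.6th in Wt. The other S2-led run between S4-led runs, chr1:195480001-195520000 (40 kb), had scores of -1.50, 0.0295, -3.92 and -3.20 SD units for S1, S2, S3 and S4 in the clone and -1.04, 0.748, -2.85 and 0.821 in Wt. After scaling, S2 held 100% of the signal in the clone. The summed signal was at the 1.22nd percentile in the clone but at the 35.0th in Wt, the line in which the run was called. Whether the amount of signal bears on these direct passages from S4 to S2 and back was not tested.

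The other 3 peaks with the smallest difference from their flanks in the clone were all S3-led runs of 40 kb between S4-led runs. In chr1:118800001-118840000 the S3 and S4 shares were 38.1% and 41.7% in the clone, against 41.7% and 37.6% in Wt. In chr1:9020001-9060000 they were 37.9% and 41.2% in the clone, against 38.0% and 36.6% in Wt, between S4-led runs of 1240 and 1220 kb. In chr1:173520001-173560000 they were 42.5% and 45.0% in the clone, against 44.0% and 41.3% in Wt. In each of them S4 had the larger share in the clone and S3 in Wt.

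Of the 3 peaks with the smallest lead, both single-window ones were led by a later fraction in the clone. The single window chr1:121340001-121360000 had an S2 share of 24.8% and an S3 share of 33.9% in the clone, against 31.3% and 31.3% in Wt. The single window chr1:94880001-94900000 had shares of 25.2%, 30.2% and 31.3% in S2, S3 and S4 in the clone, against 31.7%, 31.1% and 30.6% in Wt, so that the order of the 3 fractions was turned round. In chr1:29940001-30000000 (60 kb, lead of 2.29%) S3 led 2 of 3 windows in the clone, with S3 and S4 shares of 36.3% and 34.5% in the clone and 37.9% and 37.1% in Wt. Its index was 2.09 in the clone, with flanks of 2.15 and 1.98. In Wt it was 1.97, below both flanks (2.09 and 2.06).

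A pair of neighbouring short peaks, chosen after the values were seen, had the lowest index in the clone relative to Wt apart from chr1:115520001-115580000. At chr1:185020001-185080000 the shares were 8.46%, 25.6%, 41% and 24.9% for S1, S2, S3 and S4 in the clone and 25.7%, 31.6%, 29.6% and 13.1% in Wt. At chr1:185120001-185200000 they were 8.53%, 27.7%, 45.6% and 18.2% in the clone and 21.3%, 36.1%, 31.8% and 10.8% in Wt. S3 was the top fraction in the clone in both, and S2 in Wt. The index was 2.18 and 2.27 in the clone, against 2.70 and 2.68 in Wt. These 2 runs lie 40 kb apart and share smoothed signal, so they count as 1 place.

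Over all peaks the index in the clone minus that in Wt had a median of -0.0361 and was below 0 in 37 of 56, against a median of -0.0126 and 55.0% of windows below 0 over the chromosome. The Wt values in this difference chose the peaks, so nothing is read from its sign. In the 24 long peaks its median was -0.00702, and in the 32 short ones -0.0640.

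The surroundings of the S2-led peaks differed. In 9 of the 33, an S4-led run lay beyond the S3-led shoulder on both sides, which makes a complete passage from late to mid S and back. Their median length was 160 kb, 6 of the 9 overlapped a clone peak, and the median difference from the flanks was 0.333 in the clone and 0.322 in Wt. In 14 an S4-led run lay beyond 1 shoulder, with a median length of 130 kb and 8 overlapped. In 6 no S4-led run lay beyond either shoulder, with a median length of 80 kb and 1 overlapped. The other 4 touched S4 directly, with a median length of 40 kb and none overlapped. Groups that were longer were also those found again more often, and length and surroundings were not told apart here.

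No Wt peak lay in the target region, which held 78 windows. The nearest upstream was chr1:71500001-71840000, described above, whose end was 141 kb from the region, and the nearest downstream was chr1:86800001-86860000 (60 kb). The peak at chr1:86800001-86860000 had shares of 10.3%, 32.2%, 37.9% and 19.6% for S1, S2, S3 and S4 in the clone and 20.0%, 33.1%, 29.4% and 17.5% in Wt, and S3 led its 3 windows in the clone. In Wt an S3-led valley of 940 kb, chr1:71840001-72780000, covered the place of the insertions.

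In the clone the same rule called 2 peaks in the target region, both led by S2 and both inside that Wt valley. The longer, chr1:72520001-72660000 (140 kb), holds the positions 72536060, 72548589 and 72565520 that the labels give for insertions in the Hi-C lines. The positions in the Repli-seq clone itself are not stated in the sources used here. Its scores were -0.114, 1.63, 1.05 and -0.595 SD units for S1, S2, S3 and S4 in the clone and -0.538, 0.531, 1.15 and 0.0727 in Wt. S2 was the highest fraction in the clone and S3 in Wt, S4 was the lowest in the clone, and S1 was the lowest in Wt. The index was 2.64 in the clone, with flanks of 2.6 and 2.41, and 2.26 in Wt, with flanks of 2.28 and 2.05.

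The shorter clone peak, chr1:72440001-72480000 (40 kb), had shares of 12.5%, 38.9%, 35.3% and 13.3% for S1, S2, S3 and S4 in the clone and 10.6%, 31.3%, 32.8% and 25.3% in Wt. Its index was 2.51 in the clone and 2.27 in Wt. It was not above both flanks in the clone, where the index went on rising towards the insertion positions. An S3-led valley of 40 kb lay between both clone peaks.

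**Figure D4:**
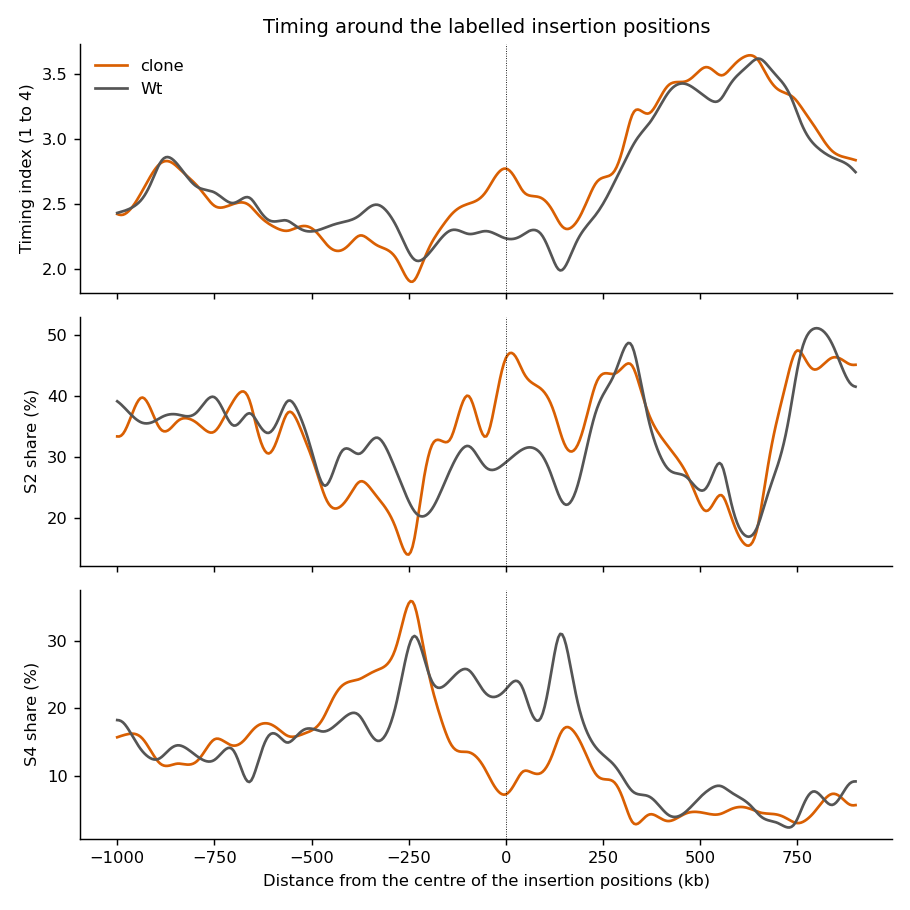
Timing index (top, scale from 1 to 4, higher is earlier), S2 share (middle, percent) and S4 share (bottom, percent) of the summed signal against distance from the centre of the labelled insertion positions (horizontal axis, kb), in the clone and in Wt. At the centre the index is 2.77 in the clone and 2.23 in Wt, the S2 share is 46.3% in the clone and 29.1% in Wt, and the S4 share is 7.23% in the clone and 22.8% in Wt.

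The peak at the insertion positions was set against the 37 clone peaks that overlapped no Wt peak, 22 led by S2 and 15 by S3. Its index in the clone was 0.388 above that in Wt, the highest of the 37, whose median was -0.00489 and whose lowest was -0.225. The next was the shorter peak in the target region, at 0.234. It lies 40 kb away and shares smoothed signal, so both count as 1 place. Outside the target region the highest was 0.214, at chr1:153280001-153320000, named after its values were seen. Clone values called these 37 peaks, so the difference is a description and not a test. It reached 0.944 among the 56 Wt peaks, at chr1:195480001-195520000. There S2 held 100% of the scaled clone signal, and the clone sum was at the 1.22nd percentile. Among the 24 Wt peaks of 100 kb or more it reached 0.165. Over single windows of the chromosome, with no limit on signal, it reached 1.47. The peak at the insertion positions was not the highest of the 37 in length, difference from its flanks or lead. Of the 37, 8 were longer, 9 stood further above their flanks in the clone (its own difference was 0.140) and 4 had a larger lead than its 37.2%. Of the 22 led by S2, these counts were 5, 8 and 2. In the 12 of the 37 peaks that were 100 kb or longer, 96 of 128 windows (75%) had the same leader in Wt. In the peak at the insertion positions 0 of 7 did, and it was 1 of 3 among these 12 with no window of the same leader. The other 2 were chr1:109100001-109240000 and chr1:128080001-128180000, led by S3 throughout in Wt and named after their values were seen. Most windows of these 12 long peaks thus had the same leading fraction in both lines, though the share was below the 88.7% of all windows. In some of the peaks S1 led windows inside the run in Wt, so the difference was not only in the neighbours. Examples are chr1:55460001-55740000 (4 of 14 windows) and chr1:185620001-185840000 (2 of 11), named after their values were seen.

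**Figure D5:**
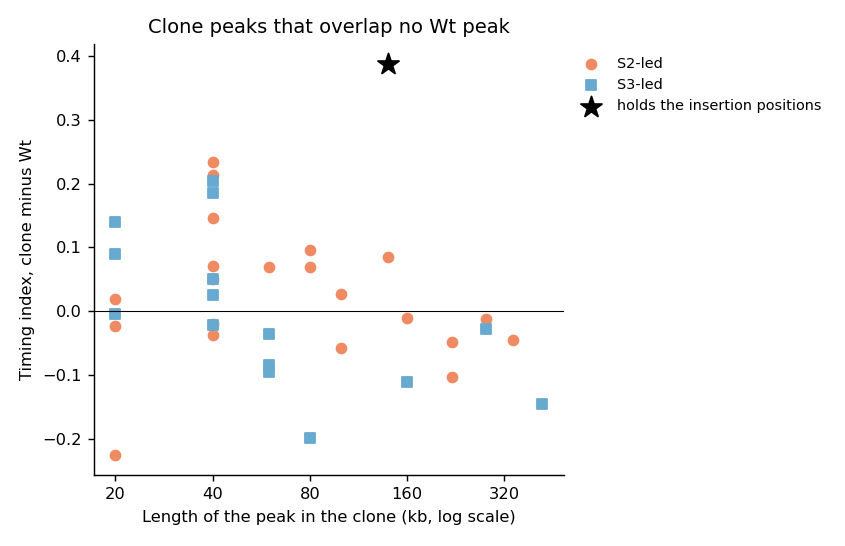
Timing index in the clone minus that in Wt (vertical axis) against length (horizontal axis, kb, log scale) for the 37 clone peaks that overlap no Wt peak, with circles for S2-led peaks, squares for S3-led peaks and a star for the peak that holds the labelled insertion positions. The star lies at 0.388 and the other 36 lie between -0.225 and 0.234.

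The authors' own weighted-average timing profile gave a less clear picture of the peaks. It is divided by gaps into 16 stretches, and 54 of the 56 peaks could be compared with flanks of the same stretch. In the clone 31 of the 54 were above the mean of their flanks, against 46.1% of Wt runs of all kinds, and the median difference was 0.0757 SD units in the clone and 0.0554 in Wt. S1-led runs of Wt, the earliest, were mixed on this measure too. Above the mean of their flanks were 101 of 174 in the clone and 81 of 174 in Wt. In the clone it was 160 of 304 transitions, 22 of 76 valleys and 34 of 147 S4-led runs. The sign of the median of the peaks in the clone depended on the setting that chose them. It was -0.0262 with the deposited values compared directly and -0.0267 with equal means and SDs of the fractions, and 0.0645 with the 5th percentile subtracted. In the long peaks the median was 0.192 in the clone, where 15 of 23 were above their flanks, and in the short peaks 0.00716, where 16 of 31 were. The long peaks were mixed in Wt too, from -0.506 SD units at chr1:162260001-162400000 to 0.482 at chr1:119660001-119960000.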

How the data were processed

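Reads were aligned with Bowtie2 to galGal5, per the submitters' processing notes, and nascent strands were amplified genome-wide before library construction, per the labels' protocols. The sources used here do not state the version, filters, normalization or smoothing. Each fraction file as the authors deposited it holds a score in SD units every 1 kb, normalized per the file headers. The weighted averages are deposited scores too. Their headers name cl6, taken as the clone.

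Windows of 20 kb were tiled from position 1 and needed 10 values, which 9808 windows had. In 21 of these in Wt, none next to a peak, every scaled fraction was 0, so they had no leader and ended a run. Flanks were 2 windows on either side. An overlap needed 1 shared window. With 1 library per group no test was run. The rule that calls peaks was tested on leader strings with known peaks and on simulated fractions with peaks at known places. The statistics on the called peaks were not tested in this way. The members and lists were chosen with earlier results of these data known. The regions named are the 5 longest S2-led and S3-led peaks, the 5 largest and 5 smallest clone differences from the flanks, those nearest the target region, the smallest leads and near misses, the clone peak at the insertion positions, and S2-led runs between S4-led ones.

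Alternatives changed the window size, tiling, scaling, run borders, small leads and flanks. The asynchronous and the 4 Hi-C libraries were not analysed here. No genome or annotation of galGal5 was used, so no gene was placed and no sequence read. Python 3.11.15, numpy 2.4.6, pandas 2.3.3, scipy 1.17.1 and matplotlib 3.10.9 were used.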

Additional observations from a re-analysis of the deposited data

How the results depend on the processing

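Of 120 alternative values for 12 results under 13 settings, 101 stayed within their limits (1.5-fold for counts and lengths, the exact 95% interval for shares, the SD over peaks for medians), 16 moved and 3 changed sign. The limits for shares and medians treat windows or peaks as independent, which neighbouring windows are not. The tally is therefore a description and no measure of error. Of the 120, 24 were added after the data had been seen, among them all that divide peaks by length. The 374 windows in Wt peaks became 720 with windows of 10 kb and 155 with 50 kb, which follows from the window size. The median length of 80 kb became 140 kb with runs of 1 window merged into a neighbour and 150 kb at a window size of 50 kb. The share of Wt peaks overlapped in the clone, 42.9%, was 60% with windows of 50 kb, 61.7% with deposited values compared directly or with equal means and SDs, 58.5% with runs of 1 window merged and 58.7% with leads under 5% merged. For peaks of 100 kb or more the 83.3% became 100%, and for those under 100 kb the 12.5% became 34.3%, with deposited values compared directly or with equal means and SDs. The share above both flanks in the clone, 48.2%, was 68.9% with windows of 50 kb and 65.9% with runs of 1 window merged, and the median difference of 0.0607 was 0.237 with windows of 50 kb. That difference was 0.176 with runs of 1 window merged and 0.124 with leads under 5% merged, both counted as within the SD limit. The median weighted-average difference in the clone, 0.0757, was -0.0262 with deposited values compared directly, -0.0123 with leads under 5% merged and -0.0267 with equal means and SDs. Apart from the window size, the cause of these changes was not tested. The number of peaks was 47 to 74 in the clone and 41 to 60 in Wt, and the peak at the insertion positions was 140 to 200 kb long. No paired analysis was possible because every fraction of a line was a single library. Depth is unknown, so its effect could not be assessed.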

Other observations

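The 37 clone peaks with no Wt counterpart lay in Wt at timing transitions (19), valleys (8), S4-led runs (8) and S1-led runs (2), by the window at their centre. Among the 12 of them of 100 kb or more, the Wt index was above both flanks in 9. Of 776 Wt runs of all kinds, 26.9% were above both flanks in Wt, and of 178 S1-led runs 96.1% were. Of the 9, chr1:55460001-55740000 and chr1:185620001-185840000 were centred on S1-led runs in Wt. On this index most of the 12 places were thus local maxima in Wt as well, although the rule did not call them there. The authors' weighted average in Wt was mixed at these 9. It stood from -0.662 SD units (chr1:57260001-57480000) to 0.390 (chr1:54340001-54440000) relative to the mean of the flanks. Among the 25 of up to 80 kb it was above both flanks in 5, and 17 of their 54 windows (31.5%) had the same leader in Wt, close to the 30.7% of windows in short Wt peaks that kept their leader in the clone. The longest of the 37, chr1:103880001-104300000 (420 kb, chosen after its values were seen), was led by S3 in all 21 windows in Wt as in the clone, with an index of 2.13 in the clone and 2.28 in Wt.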
